A study of Mus musculus with 8 samples.

Results

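The urokinase plasminogen activator, its receptor, the matrix metalloproteinases and their inhibitors were examined in c-Jun ChIP-seq of mouse primed pluripotent cells, to see where c-Jun sits around their genes. The 9 genes were Plau, Plaur, Serpine2, Timp1, Timp3, Mmp2, Mmp9, Mmp14 and Cd44, chosen by name and function. Earlier results of these data were known when this choice was made. A peak was counted for a gene when its centre lay within 50 kb of a transcription start site (TSS) of a curated RefSeq transcript, and each of the 9 genes has 1 such start site. By this rule 21 of 16166 peaks of EpiSCs and 8 of 6032 peaks of kEpiSCs belonged to the 9 genes. EpiSCs are epiblast stem cells, which stand for the epiblast after implantation. Those used for ChIP carry the strain label CBA/CaJ X C57BL/6J. The study's methods instead derive the EpiSCs from a cross with OG2 mice, which carry an Oct4-GFP reporter, so by that account both lines carry it. kEpiSCs are the same kind of cell with a lentiviral Klf4 transgene, selected with G418 and described as driven by a CAG promoter. Both lines were grown in FN medium with Activin A and bFGF, and the labels name no further treatment. Each line had 2 c-Jun ChIP and 2 input libraries, and 1 peak list per line was used here, so no value below has a spread between replicates and no test between the lines was possible.

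The plasminogen system works as a cascade at the cell surface. The urokinase-type activator binds its receptor and turns plasminogen into plasmin, which cleaves fibrin and matrix proteins and can activate matrix metalloproteinases, while serpins and TIMP proteins hold the proteases back. The system is known for matrix breakdown by migrating and invading cells, such as the trophoblast at implantation. The transcription factor AP-1, made of Jun and Fos family members, binds the sequence TGAGTCA, and several of these genes are textbook targets of AP-1.

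Of the 9 genes, 7 had a c-Jun peak in EpiSCs and 4 also had one in kEpiSCs. Plaur, which encodes the urokinase receptor, stood out by number, with 9 peaks in EpiSCs and 5 in kEpiSCs. Plau, Timp3 and Mmp14 had 3 EpiSC peaks each, and Timp1, Mmp2 and Mmp9 had 1 each. Plaur, Timp3, Mmp2 and Mmp14 had a peak in both lists, Plau, Timp1 and Mmp9 in EpiSCs only, and Serpine2 and Cd44 in neither. For background, 50.7% of 21000 protein-coding genes had an EpiSC peak within 50 kb, 27% had a kEpiSC peak and 25.1% had both. With 9 genes, each gene is worth a large step in their shares of 77.8% and 44.4%, and these shares are given as a description. Within 10 kb, 5 of the 9 genes had an EpiSC peak (background 21.8%) and 2 had a kEpiSC peak (background 8.27%).

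**Figure D1:**
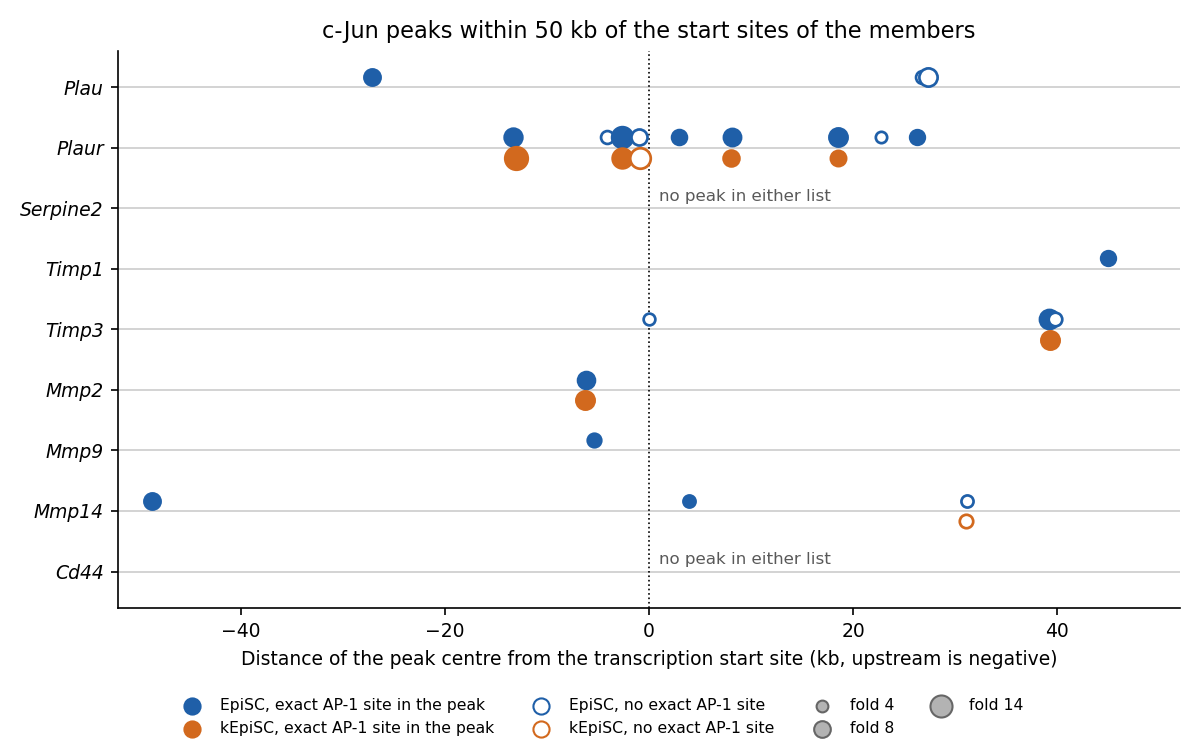
Each point is a c-Jun peak, placed by the distance of its centre from the start site of the gene in kb (x axis) and by gene (y axis), with EpiSC peaks above the line and kEpiSC peaks below it. The area of a point is proportional to the fold enrichment over local background, and a filled point holds an exact AP-1 site anywhere in the peak. Plaur holds 9 of the 21 EpiSC peaks, and each of the 8 kEpiSC peaks lies under an EpiSC peak.

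The sequences around the summits show how the AP-1 site sits in these peaks. They are given for the highest-fold EpiSC peak of each gene, with 50 bp on each side of the summit (1 base more at Mmp14, to hold its whole site), on the plus strand of mm10. Capitals mark an exact TGAGTCA or its reverse complement TGACTCA, or, where a peak holds neither, the closest match, nearest to the summit among equals. At Plau the second highest EpiSC peak is added, since the highest one has no exact site.
Plau, highest peak, chr14:20863912-20864012: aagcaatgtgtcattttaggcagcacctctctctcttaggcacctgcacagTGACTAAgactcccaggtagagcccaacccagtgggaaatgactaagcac
Plau, second peak, chr14:20809453-20809553: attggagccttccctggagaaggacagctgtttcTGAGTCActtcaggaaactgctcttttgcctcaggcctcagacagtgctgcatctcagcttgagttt
Plaur, chr7:24459519-24459619: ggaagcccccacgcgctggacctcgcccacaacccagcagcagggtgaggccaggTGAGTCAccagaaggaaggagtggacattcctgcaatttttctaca
Timp1, chrX:20915197-20915297: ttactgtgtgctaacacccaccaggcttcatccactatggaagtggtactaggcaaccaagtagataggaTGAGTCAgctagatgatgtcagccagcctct
Timp3, chr10:86339620-86339720: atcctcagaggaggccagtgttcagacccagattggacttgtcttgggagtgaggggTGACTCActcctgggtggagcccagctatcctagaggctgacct
Mmp2, chr8:92821091-92821191: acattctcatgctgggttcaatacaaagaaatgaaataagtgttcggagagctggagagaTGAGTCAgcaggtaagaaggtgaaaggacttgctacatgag
Mmp9, chr2:164942782-164942882: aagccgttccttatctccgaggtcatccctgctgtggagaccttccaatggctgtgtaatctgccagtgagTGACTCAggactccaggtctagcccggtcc
Mmp14, chr14:54382806-54382907: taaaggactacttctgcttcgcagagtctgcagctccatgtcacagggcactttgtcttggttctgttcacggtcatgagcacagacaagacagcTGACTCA

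Of all EpiSC peaks, which were not picked by height, 51.0% held an exact site anywhere in the peak, as did 13 of these 21. In 6 of the 7 genes the highest EpiSC peak held an exact site. Measured from its middle base, as all such distances are, it lay 8 bp from the summit at Plaur, 10 bp at Timp3, 13 bp at Mmp2, 23 bp at Timp1, 24 bp at Mmp9 and 48 bp at Mmp14. At Plau the closest match was TGACTAA, with 1 mismatch. The stretch holds it at 2 places, and capitals mark the one nearer to the summit, 4 bp away. Its second highest peak held TGAGTCA 13 bp from the summit.

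Plau encodes the urokinase-type plasminogen activator. The gene lies on chromosome 14 from 20836662 to 20843388 (mm10, plus strand), and its 3 EpiSC peaks all lay outside the gene, 26.8 to 27.3 kb from the start site. The highest, chr14:20863879-20864055, lay 27.3 kb downstream between genes, with a fold enrichment of 9.58. Fold enrichment is the deposited ratio of ChIP signal at the summit to local background. The counting error behind it was taken from the reads at the summit, here 13 reads with an exact 95% Poisson interval of 6.92 to 22.2. A weaker peak lay close by on the side of the gene, at 26.8 kb, with a fold of 4.79 from 6 reads (2.20 to 13.1). The upstream peak, chr14:20809447-20809572, had a fold of 7.53 from 10 reads (4.80 to 18.4) and was nearer to the start site of Camk2g, at 15.4 kb, than to that of Plau at 27.2 kb. The kEpiSC list had no peak within 50 kb of Plau, and its nearest one was 131 kb away, with a fold of 5.54.

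Plaur encodes the urokinase receptor, a glycolipid-anchored protein that holds the activator at the cell surface. The gene spans chromosome 7 from 24460937 to 24475970 (plus strand) with predicted transcripts included, and its curated start site is at 24462483. In EpiSCs 4 of its peaks lay upstream, 2 in its introns and 3 beyond its end. The highest, chr7:24459491-24460123, lay 2.68 kb upstream between genes, was also the widest of the 21 at 633 bp, and had a fold of 12.4 from 24 reads (15.4 to 35.7). Of all EpiSC peaks 3.94% had a smaller q-value. At 4.16 kb upstream a weak peak had a fold of 4.79 from 6 reads, and at 0.958 kb upstream another had 7.41 from 13 reads (6.92 to 22.2), inside the span of the predicted transcripts. The peak 13.3 kb upstream had a fold of 8.99 from 16 reads (9.15 to 26.0), and lay nearer to the start site of Irgc1, at 3.51 kb.

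The intron peaks of Plaur were at 2.96 kb in intron 2, with a fold of 6.35 from 11 reads (5.49 to 19.7), and at 8.11 kb in intron 3, with a fold of 8.47 from 15 reads (8.40 to 24.7). Both held TGACTCA, at 2 bp and 43 bp from the summit. Beyond the gene the peaks approached Cadm4, a cell adhesion gene, whose start site was the nearest to all 3 of them. The first of these, 18.6 kb from the Plaur start site, had a fold of 9.52 from 17 reads (9.90 to 27.2) and lay 983 bp from the start of Cadm4. The others, in intron 1 of Cadm4, had folds of 3.70 from 6 reads and 6.16 from 8 reads. The Plaur peaks thus spanned a range from 13.3 kb upstream to 26.2 kb downstream.

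**Figure D2:**
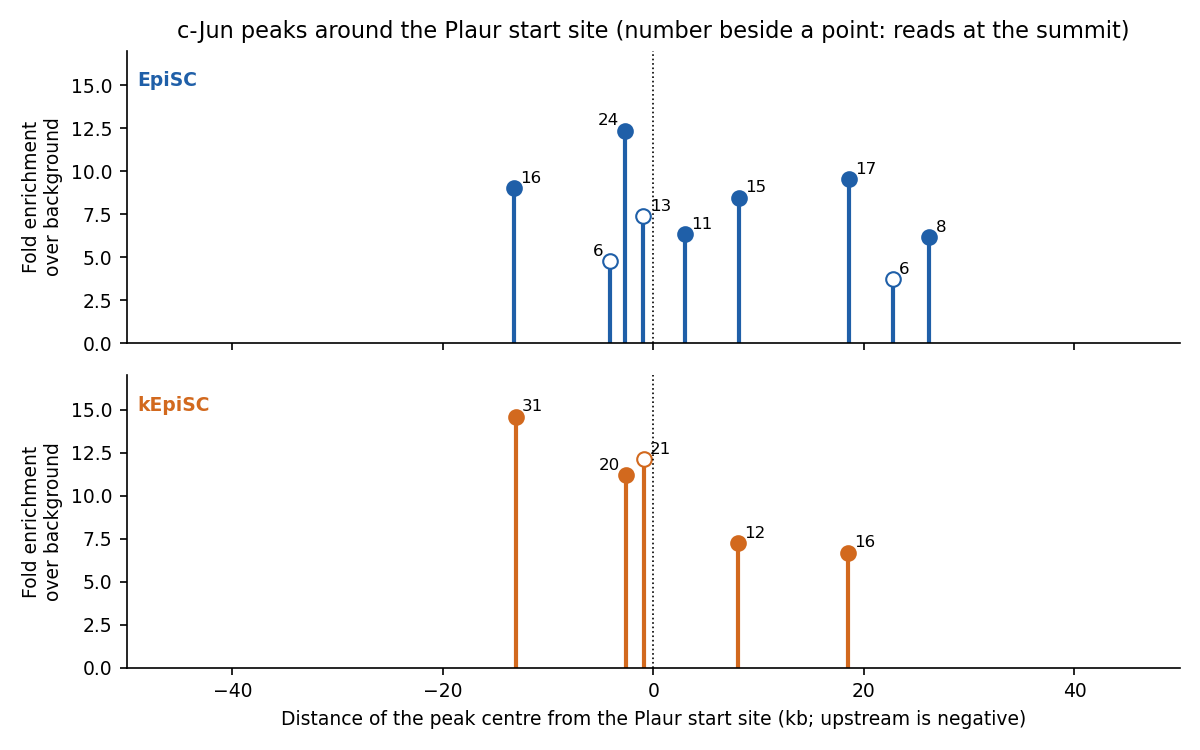
Fold enrichment over local background (y axis) of each c-Jun peak around Plaur against the distance of its centre from the start site in kb (x axis), for EpiSCs (upper panel) and kEpiSCs (lower panel). Numbers are reads at the summit and filled points hold an exact AP-1 site. The 9 EpiSC peaks run from a fold of 3.70 to 12.4, and the 5 kEpiSC peaks from 6.70 to 14.6.

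In kEpiSCs the same Plaur locus held 5 peaks, each overlapping an EpiSC peak. The highest was the far upstream one, chr7:24449291-24449517, with a fold of 14.6 from 31 reads (21.1 to 44.0). Of all kEpiSC peaks 2.06% had a smaller q-value. The peak 0.940 kb upstream had a fold of 12.1 from 21 reads (13.0 to 32.1), and that 2.61 kb upstream 11.2 from 20 reads (12.2 to 30.9) over a width of 725 bp. The intron 3 peak had 7.23 from 12 reads (6.20 to 21.0), and the one beside Cadm4 6.70 from 16 reads (9.15 to 26.0). The 4 EpiSC peaks of Plaur with no kEpiSC counterpart were those at 4.16, 2.96, 22.7 and 26.2 kb, and they had between 6 and 11 reads in EpiSCs.

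Sequences at 3 of the shared Plaur peaks are shown because they differ in their AP-1 sites. The far upstream stretch, around the kEpiSC summit, holds a site on each side of that summit. The stretch beside Cadm4, which runs over the summits of both lines, also holds 2. The stretch 0.958 kb upstream, around the EpiSC summit, holds no exact site, and capitals mark the closest match. These 3 were chosen after their values were seen.
Plaur, far upstream, chr7:24449346-24449446: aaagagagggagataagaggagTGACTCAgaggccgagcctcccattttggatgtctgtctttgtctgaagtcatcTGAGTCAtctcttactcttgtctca
Plaur, beside Cadm4, chr7:24480856-24481096: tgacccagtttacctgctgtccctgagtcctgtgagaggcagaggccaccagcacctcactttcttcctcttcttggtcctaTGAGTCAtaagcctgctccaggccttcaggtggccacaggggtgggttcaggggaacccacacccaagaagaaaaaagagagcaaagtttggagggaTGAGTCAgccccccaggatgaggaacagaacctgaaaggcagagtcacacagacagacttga
Plaur, nearest to the start site, chr7:24461468-24461568: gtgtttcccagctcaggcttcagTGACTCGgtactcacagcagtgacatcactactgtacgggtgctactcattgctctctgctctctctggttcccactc

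At the far upstream peak the summits of the lines were 48 bp apart. The EpiSC summit lay 23 bp from TGACTCA, and the kEpiSC summit lay between TGACTCA (25 bp) and TGAGTCA (29 bp). Beside Cadm4 the summits were 160 bp apart, the widest gap among the 8 shared peaks, against a median gap of 24 bp over all 4573 EpiSC peaks that overlap a kEpiSC peak. There the EpiSC summit lay 18 bp from the TGAGTCA at 24481035, and the kEpiSC summit 45 bp from the TGAGTCA at 24480938. At the peak nearest to the start site the closest letters were TGACTCG, 24 bp from the EpiSC summit and 1 mismatch from the site, and TGAGTGA, 40 bp from the kEpiSC summit and also 1 mismatch away. Its fold was the second highest of the 8 in kEpiSCs, with no exact site in the peak.

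The Plaur promoter, from 250 bp before to 50 bp after the start site in RefSeq (GRCm38.p6), also held an exact site, TGACTCA, beginning 69 bp before the start site. The 125 bp before the start site are shown with this site in capitals.
Plaur promoter, chr7:24462358-24462482: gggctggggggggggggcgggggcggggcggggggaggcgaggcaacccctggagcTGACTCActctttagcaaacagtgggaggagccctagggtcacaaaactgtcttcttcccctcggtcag
No peak of either list overlapped this promoter. Of 32851 RefSeq promoters, 5.20% held TGAGTCA on either strand. Promoters were matched for 6 of the 9 genes, Plaur, Serpine2, Timp1, Timp3, Mmp14 and Cd44, and Plaur was the 1 among them with an exact site. A match in the letters is a description and not evidence of binding.

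Of the inhibitors, Serpine2 encodes protease nexin 1, a serpin that blocks urokinase and thrombin. It lies on chromosome 1 from 79794317 to 79858665 (minus strand), and neither list had a peak within 50 kb. Its nearest EpiSC peak was 277 kb away, with a fold of 13.0, and its nearest kEpiSC peak 82.5 kb away, with a fold of 4.51.

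Timp1 and Timp3 encode secreted inhibitors of metalloproteinases, and the peaks of both lie in introns of synapsin genes. Timp1, on chromosome X from 20870166 to 20874737 (plus strand), had 1 EpiSC peak, chrX:20914972-20915338, 45.0 kb downstream in intron 1 of Syn1. Its fold was 6.16 from 8 reads (3.45 to 15.8), and the start site of Syn1 was nearer, at 5.76 kb. The peak held TGAGTCA at 23 bp and at 222 bp from the summit. This peak lay just inside the 50 kb limit and the next EpiSC peak, at 50.9 kb with a fold of 3.54, just outside it. The nearest kEpiSC peak was 53.0 kb away, also outside the limit, with a fold of 5.15.

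Timp3, on chromosome 10 from 86300412 to 86349505 (plus strand), had 3 EpiSC peaks and 1 kEpiSC peak. The highest EpiSC peak, chr10:86339456-86339822, lay 39.2 kb downstream in intron 2 of Timp3, which is also intron 6 of Syn3, and had a fold of 10.5 from 17 reads (9.90 to 27.2). The kEpiSC peak overlapped it with a fold of 9.61, also from 17 reads, and the summits were 4 bp apart, next to the same TGACTCA. A weaker EpiSC peak beside it, at 39.8 kb, had a fold of 5.29 from 7 reads (2.81 to 14.4) and no exact site.

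The remaining Timp3 peak, chr10:86300263-86300555, sat at the start site itself, its centre 3 bp before it. Its fold was 3.96 from 10 reads (4.80 to 18.4) and the local background there was 2.81 times the median of the list. The sequence in its central 200 bp was 71.5% G and C, the highest of the 21 EpiSC peaks, whose median was 51.5%, and it held no exact AP-1 site. Among the 6 promoters searched it was the 1 that a peak overlapped, in EpiSCs and not in kEpiSCs.

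Of the metalloproteinases, Mmp2 and Mmp9 are the gelatinases, which degrade denatured collagen and collagen of the basement membrane. Mmp2, on chromosome 8 from 92827290 to 92853421 (plus strand), had 1 peak in each list, between genes and 6.16 kb upstream in EpiSCs. The EpiSC peak, chr8:92821034-92821245, had a fold of 8.21 from 11 reads (5.49 to 19.7), and the kEpiSC peak, chr8:92820899-92821188, a fold of 9.61 from 17 reads (9.90 to 27.2). The summits were 3 bp apart and lay 13 bp and 16 bp from the same TGAGTCA. Both summits lay in a repeat masked in the genome.

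Mmp9, on chromosome 2 from 164940326 to 164955850 with predicted transcripts included (plus strand, curated start site at 164948219), had 1 EpiSC peak, chr2:164942770-164942884. It lay 5.39 kb upstream of the curated start site, inside the span of the predicted transcripts, and its fold was 5.29 from 9 reads (4.12 to 17.1). TGACTCA lay 24 bp from its summit. The kEpiSC list had no peak within 50 kb, and its nearest one was 75.8 kb away, with a fold of 4.38.

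Mmp14 encodes a metalloproteinase anchored in the membrane that activates the precursor of MMP2. On chromosome 14 from 54431598 to 54442456 (plus strand), it had 3 EpiSC peaks and 1 kEpiSC peak. The highest, chr14:54382744-54382964, had a fold of 7.53 from 10 reads (4.80 to 18.4), but it lay 48.7 kb upstream in an intron of Slc7a7, just inside the limit, and the start site of Oxa1l was nearer, at 22.0 kb. The next EpiSC peak out, at 61.5 kb, had a fold of 4.11. In intron 1 of Mmp14, 3.88 kb downstream, a peak had a fold of 4.23 from 7 reads (2.81 to 14.4), with TGAGTCA 14 bp and GGAATG, a TEAD-type site, 3 bp from the summit. At 31.1 kb downstream, 1.41 kb from the start site of Lrp10, a peak had the same fold and reads. The kEpiSC peak overlapped it, with a fold of 5.20 from 11 reads (5.49 to 19.7), and neither held an exact site.

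Cd44 encodes the hyaluronan receptor, which can hold MMP9 at the cell surface. It lies on chromosome 2 from 102811141 to 102901669 (minus strand), and neither list had a peak within 50 kb of its start site. The nearest EpiSC peak was 86.2 kb away, with a fold of 4.23, and the nearest kEpiSC peak 473 kb away, with a fold of 6.56.

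**Figure D3:**
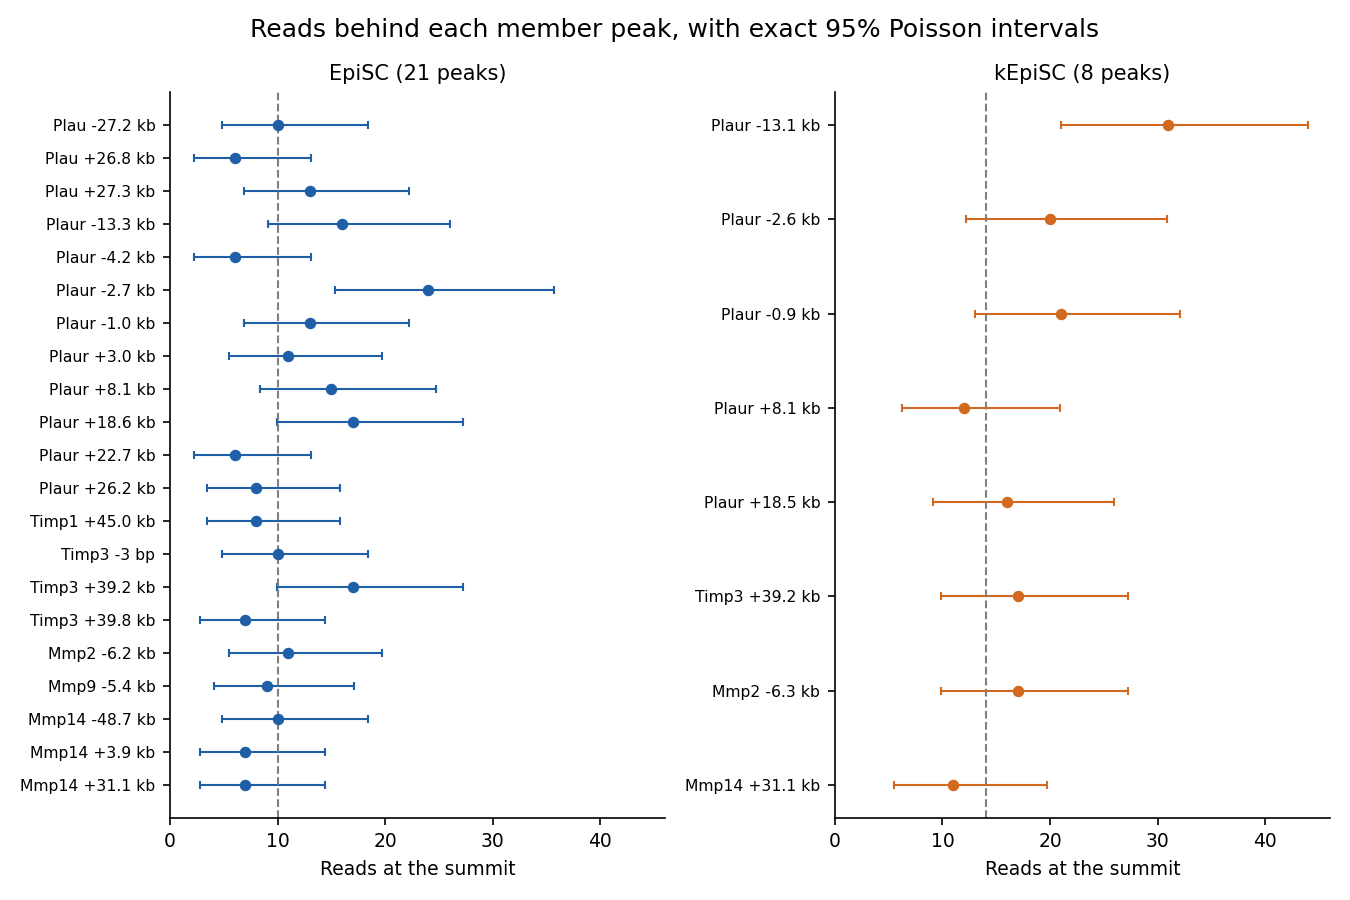
Reads at the summit (x axis) of each EpiSC peak (left) and kEpiSC peak (right) of the 9 genes, named by gene and distance from the start site (y axis). Bars are exact 95% Poisson intervals, which cover counting error only, and dashed lines are the medians of the lists, 10 reads in EpiSCs and 14 in kEpiSCs. The peak 2.68 kb upstream of Plaur, with 24 reads, is the highest in EpiSCs, and the peak 13.1 kb upstream of Plaur, with 31 reads, the highest in kEpiSCs.

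Set against all peaks, those of the 9 genes were of ordinary height in EpiSCs. Their fold had a median of 6.35 (3.70 to 12.4), against 6.16 over the whole list, and 11 of 21 lay above the list median. Their reads had a median of 10 (6 to 24), the same as the list. In kEpiSCs the median fold was 9.61 (5.20 to 14.6), against 7.23 over the list, and 5 of 8 lay above the list median. The kEpiSC reads had a median of 17 (11 to 31), against 14. Without the Plaur peaks the EpiSC median was 5.72 over 12 peaks and the kEpiSC median 9.61 over 3 peaks. With a window of 100 kb the kEpiSC median was 7.235 over 15 peaks, about that of the list.

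By position, 9 of the 21 EpiSC peaks lay upstream and 12 downstream of the start site, 11 between genes and 10 in introns of curated transcripts. Within 1 kb of a start site there were 2, at Timp3 and Plaur, and within 10 kb there were 9. For 8 of the 21 the nearest start site was that of another gene, namely Camk2g, Irgc1, Cadm4 (3 peaks), Syn1, Oxa1l and Lrp10, so these peaks cannot be told apart from peaks of those neighbours. Of the kEpiSC peaks 4 lay upstream and 4 downstream, 6 between genes and 2 in introns, and 3 were nearer to another gene. Summits of 4 of the 8 kEpiSC peaks lay in masked repeats, against 7.82% of all kEpiSC peaks, and of 2 of the 21 EpiSC peaks, against 9.77%.

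Plaur was near the upper end of all genes by number of peaks. At least 9 EpiSC peaks were found at 166 protein-coding genes, 0.790%, and at least 5 kEpiSC peaks at 139 genes, 0.662%. The same peaks were counted for 5 neighbouring protein-coding genes, Cadm4 and Irgc1 (9 each), Zfp428 (8), Irgq (3) and Smg9 (1), and 3 of these 5 had at least as many peaks in their own windows as Plaur. The median number over all genes was 1 in EpiSCs and 0 in kEpiSCs, and so was the median over the 9 genes.

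Of the 21 EpiSC peaks of the 9 genes, 8 overlapped a kEpiSC peak by at least 1 bp (38.1%, against 28.3% of all EpiSC peaks). All 8 kEpiSC peaks overlapped an EpiSC peak, against 75.8% of the kEpiSC list. The 8 shared peaks had a median EpiSC fold of 8.73 and 15.5 reads, and the 13 others 5.29 and 8 reads. Over the whole list the medians were 8.21 with overlap and 5.82 without. Without Plaur 3 of 12 overlapped (25%). The smaller kEpiSC list starts at 7 reads a peak and has a median of 14, and whether the 13 were free of c-Jun in kEpiSCs was not tested.

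At the 8 shared peaks the fold was higher in kEpiSCs at 4 and higher in EpiSCs at 4. The ratio of kEpiSC to EpiSC fold ran from 0.704 beside Cadm4 to 1.64 at the peak nearest to the Plaur start site, with a median of 1.04, against 0.933 over all 4573 shared peaks. The kEpiSC fold was also higher at the far upstream Plaur peak (1.62), at Mmp2 (1.17) and at Mmp14 (1.23), and lower at the Plaur peak 2.68 kb upstream (0.905), at that in intron 3 (0.855) and at Timp3 (0.916). In all 8 pairs the Poisson intervals of the reads overlapped. In kEpiSCs 1 read was estimated to count as 0.775 in the ChIP signal, and in EpiSCs it was set to 1. Folds were not normalised between the lists, so these ratios are given side by side with no call.

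In the central 200 bp, 9 of the 21 EpiSC peaks held the exact AP-1 site (42.9%, 95% Wilson interval 24.5 to 63.5%), against 45.9% of all EpiSC peaks and 4.02% of windows 2 kb away. Of the kEpiSC peaks 4 of 8 held it (50%, 21.5 to 78.5%), against 58.5% of the list and 4.09% of its flanks. Several sites lay outside the central window but close to the summit. Within 100 bp around the summit 12 of 21 EpiSC peaks held it (57.1%, 36.5 to 75.5%), against 39.9% of all, and 6 of 8 kEpiSC peaks (75%, 40.9 to 92.9%), against 50.9%. In the whole peak the counts were 13 of 21, against 51.0% of all, and 6 of 8, against 63.4%. Each of these intervals holds the value of its whole list.

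EpiSC peaks of the 9 genes with the site in the central window had a median fold of 7.53 and those without 5.04, against 6.84 and 5.82 over the whole list. In kEpiSCs the order was the opposite, with 8.42 over 4 peaks with the site and 10.4 over 4 without, against 7.57 and 6.69 over the list. The highest of the 21 EpiSC peaks, at Plaur, counts among those without, since its site lies near the summit of a wide peak. In kEpiSCs the Plaur peak 2.61 kb upstream and the Mmp2 peak also count among those without. Their exact sites lie 28 bp and 16 bp from the summit, outside the central window. With any middle base, TGANTCA, which includes the exact site, the counts were 9 of 21 (42.9%, against 49.8% of the list) and 5 of 8 (62.5%, against 62.6%). The cyclic AMP response element TGACGTCA, which Jun also binds together with ATF proteins, was found in 0 of 21 and 0 of 8 peaks, against 2.13% and 2.40% of the lists. GGAATG (TEAD-type) was in 1 of 21, against 17.8%, and in 0 of 8, against 19.7%. The Klf-type GGGNGTGG was in 2 of 21, against 9.20%, and in 1 of 8, against 8.95%. The octamer ATTTGCAT was in 0 of 21 and 0 of 8, against 1.34% and 1.13%, shares too small for so few peaks to be read against. The Plaur peak 2.68 kb upstream held CATTCC, the reverse complement of GGAATG, outside that window, at 33 bp from the EpiSC summit and 3 bp from the kEpiSC summit. Each motif was looked for on either strand within the central 200 bp.

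The same rule was applied to 50 further genes of matrix proteolysis in 5 lists by role. Of these, 34 had an EpiSC peak within 50 kb (68%, background 50.7%) and 20 a kEpiSC peak (40%, background 27%), and all 20 had an EpiSC peak too. Within 10 kb the counts were 18 and 10 of 50. Among 10 further plasminogen system genes, 8 had an EpiSC peak and 6 a kEpiSC peak. Serpinf2, which encodes the inhibitor of plasmin, had a highest EpiSC peak of 16.0 from 25 reads, in an intron of Smyd4 and nearest to Serpinf1, and a kEpiSC peak of 11.4 at the same place.

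Of 16 other metalloproteinase genes 7 had an EpiSC peak and 4 a kEpiSC peak. Mmp3, Mmp7, Mmp8, Mmp10, Mmp12 and Mmp13, neighbours on chromosome 9, had none in either list. The highest EpiSC peaks were at Mmp24, with a fold of 10.6 in its intron 5, and at Mmp25, with 8.11 at 30.1 kb upstream in Hcfc1r1. The nearest start site was that of BC029722 for the Mmp24 peak and that of Thoc6 for the Mmp25 peak. Of 10 ADAM and ADAMTS genes, whose products shed surface proteins or cut matrix proteoglycans, 6 and 3 had a peak, led by Adam19 with a fold of 11.1 and Adam12 with 10.1. Of 6 other inhibitors 5 and 4 had a peak, led by Timp2, with a fold of 13.2 in its intron 1, and by Serpinh1, a collagen chaperone of the serpin family, with 7.94 in an intron of Map6. All 8 partners and activators had an EpiSC peak and 3 a kEpiSC peak. Of them, Ctsb, which encodes cathepsin B, had a fold of 13.9 in its intron 1 and no kEpiSC peak, and Furin, whose product activates the Mmp14 precursor, had 8.21 in EpiSCs and 11.0 in kEpiSCs.

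**Figure D4:**
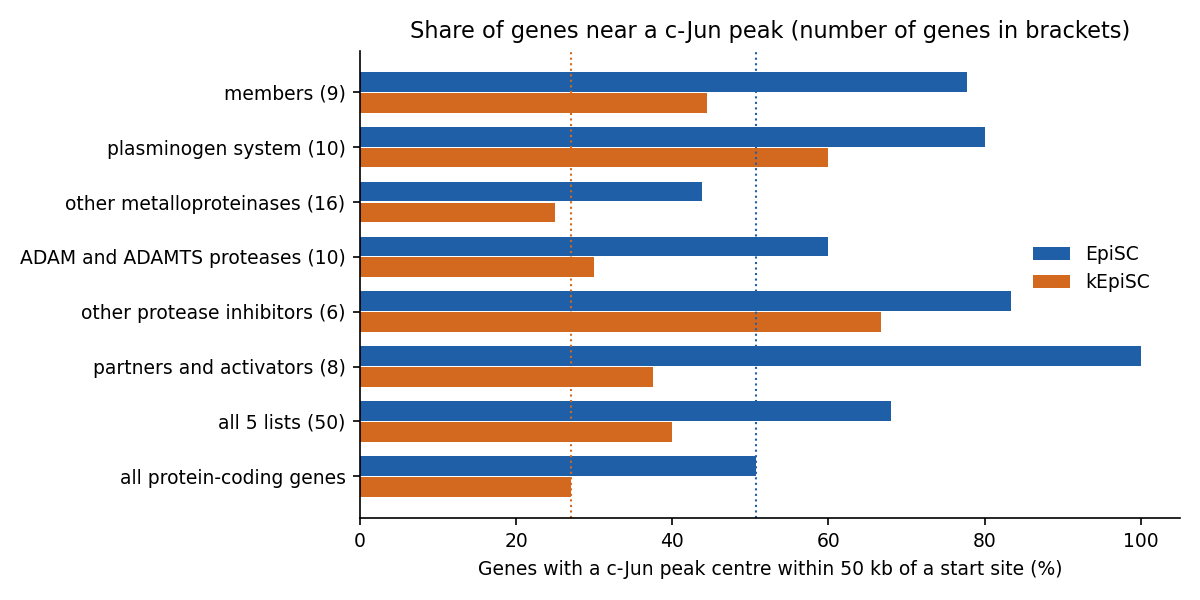
Share of genes in percent (x axis) that have c-Jun bound no further than 50 kb from a start site, for the 9 genes, the 5 lists of further genes, those 50 together and all protein-coding genes (y axis), with the number of genes in brackets. Dotted lines mark the share over all protein-coding genes, 50.7% in EpiSCs and 27% in kEpiSCs. The 16 other metalloproteinases lie a little below these lines, at 43.8% in EpiSCs and 25% in kEpiSCs, where each gene is a large step. The 8 partners and activators reach 100% in EpiSCs and 37.5% in kEpiSCs.

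The peaks rest on few reads, 10 at the summit of the median EpiSC peak and 14 of the median kEpiSC peak, and whether a list covers 1 or both ChIP libraries of its line was not tested. On the antibody, the labels differ among themselves. Their antibody field gives c-Jun, as does the paper, but their protocol text gives H3K27ac. No peak of either list overlapped an exon of Klf4, the transgene of kEpiSCs.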

How the data were processed

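c-Jun ChIP-seq of EpiSCs and kEpiSCs was used, with 2 ChIP and 2 input libraries per line, grouped by their titles. The authors aligned the reads to mm10 (Bowtie2), kept those that mapped uniquely and used MACS2 with its defaults to call peaks. bcl2fastq, SAMtools and bedtools are named as well in the submitters' processing notes. Versions of these tools were not given in the sources used here. The methods merge biological replicates for ATAC-seq and refer ChIP-seq mapping to the same steps, without saying whether ChIP replicates were merged before peaks were called. For each peak the deposited list holds a score derived from its q-value, the fold of ChIP over background at the summit with 1 added to both, −log10 of the p-value and −log10 of the q-value. GEO's description of ChIP replicate 1 of a line names its list together with a merged signal track, so the list may cover both ChIP libraries or that one only.

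The deposited fold and p-value together gave the reads at the summit, which met −log10 p within 0.01 for 100% of peaks. For kEpiSCs the worth of 1 read, 0.775, was an estimate, picked to make this agreement best on a subset of the peaks. The agreement is therefore no separate check of that worth. Exact Poisson and Wilson intervals (95%) cover counting error only. Reads per library were not analysed here. Peaks were assigned to curated RefSeq start sites on GRCm38.p6, the assembly of mm10, within 50 kb of the peak centre, for 21000 protein-coding genes. With 1 list per line no test was run, and values are set beside those over all genes or peaks. The members and lists were chosen with earlier results of these data known. The text names all 9 members and, in each of the 5 lists, the 2 genes with the highest-fold EpiSC peak within 50 kb, others being marked as chosen after their values were seen. A result that this rule would name is not reported here. Other genes are named where their start site is the nearest to a peak of a member or of a further gene named, or they hold it or share its window. The Mmp genes of chromosome 9, and the genes of the last section on other observations, were named after their values were seen. Alternatives covered the window, gene assignment, annotation, peak position, overlap, motif window and the higher-scoring peaks. A run without the Plaur peaks was chosen after seeing the data. The steps were tested on simulated data, with 100% of 1000 peaks solved at each read worth and 100% of 500 planted sites found. In that test the read worth was given and not estimated. Software was matplotlib 3.10.9, pandas 2.3.3, numpy 2.4.6, pysam 0.24.0 and scipy 1.17.1 under Python 3.11.15.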

Additional observations from a re-analysis of the deposited data

How the results depend on the processing

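No paired analysis was possible because replicates have no values of their own in the 1 peak list of a line, and leaving out a replicate could not be done either. Of 83 alternative values 60 stayed within the limits set and 23 moved. The limits were 1.5 times a count, the counting interval of a share, or an interval for a median fold. These limits are wide for few peaks. For the median kEpiSC fold the interval was 5.20 to 14.6, the whole range of the 8 peaks. The kEpiSC AP-1 share went from 50% to 25% at 10 kb and still counted as within its interval. A window of 10 kb left 9 EpiSC and 4 kEpiSC peaks, 2 genes with a kEpiSC peak, 4 overlapping peaks, and 18 and 10 of the 50 further genes. A window of 100 kb gave 39 and 15 peaks and 7 genes with a kEpiSC peak. Counting a peak for the gene with the nearest start site alone left 13 and 5 peaks, 5 overlapping, and 19 and 12 of the further genes. The higher-scoring peaks of each list, 50% of it, left 11 and 5 peaks, 5 overlapping, 19 and 12 of the further genes, and an EpiSC AP-1 share of 63.6%. Without the Plaur peaks 12 and 3 remained, 3 overlapping. Each of these counts falls or rises because the setting itself takes in fewer or more peaks, and for the AP-1 share the cause was not tested. With few reads per peak, weak peaks may be missing from either list.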

Other observations

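Among the further plasminogen system genes, values were looked at for Anxa2 and S100a10, chosen after their values were seen. Their products form a complex that binds plasminogen at the cell surface. Anxa2 had 7 EpiSC peaks, 5 of them within 10 kb of its start site, with a highest fold of 9.47 from 14 reads (95% Poisson interval 7.65 to 23.5) in intron 1. In kEpiSCs it had 2 peaks, and the higher one had a fold of 12.4 from 28 reads (18.6 to 40.5). That peak also lay in intron 1 but at another place, 4.74 kb from the start site, against 6.21 kb for the highest EpiSC peak. Both places were shared, since each of these peaks overlapped a peak of the other list. S100a10 had 7 EpiSC and 5 kEpiSC peaks. Its highest peak lay 48.6 kb upstream in EpiSCs, nearer to the start site of S100a11, with folds of 15.1 in EpiSCs (21 reads) and 15.1 in kEpiSCs (28 reads). Plat, which encodes the tissue-type plasminogen activator, had a kEpiSC peak 155 bp upstream of its start site, with a fold of 7.09 from 17 reads (9.90 to 27.2), and no EpiSC peak overlapped it. EpiSCs had 2 other peaks within 50 kb of Plat, 1 of them within 10 kb. Spp1, which encodes osteopontin, a ligand of CD44, had an EpiSC peak 36 bp downstream of its start site, with a fold of 6.08 from 8 reads (3.45 to 15.8), and no kEpiSC peak within 50 kb.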
